A study of Mus musculus with 30 samples.

Results

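Peroxisome proliferator-activated receptors (PPARs) are nuclear receptors that bind fatty acids and switch on genes for burning them. The 9 genes described here belong to that programme. They are the receptor Ppara, the secreted PPAR target Angptl4, the mitochondrial kinase Pdk4, the carnitine shuttle enzymes Cpt1a and Cpt2, the β-oxidation enzymes Acadm, Acadl and Hadha, and the lipid droplet protein Plin2. They were the rows whose name equals one of these symbols, 9 of the 55573 genes in each of the tables for retinal pigment epithelium (RPE) and bone marrow-derived macrophages (BMDMs). The choice was made with the lower Angptl4 of Mertk-/-V1 RPE already known, so the values of that comparison are a description without a test. None of the 9 encodes a ketogenic enzyme, and ketone body genes were taken from a separate list of 6.

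The RPE is a pigmented cell layer behind the photoreceptors. Each day it engulfs shed outer segment tips, which are rich in lipid, and it is known to oxidise the fatty acids in them and to release ketone bodies towards the retina. Macrophages also take up lipid with engulfed cells and can store it in droplets. MERTK is the receptor tyrosine kinase through which both cell types recognise phosphatidylserine on such prey.

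The study set 3 mouse lines without functional Mertk beside C57BL/6 (B6 WT) mice, to ask which traits of the oldest line come from the loss of Mertk. RNA was sequenced in paired-end reads of 150 bp from the RPE at postnatal day (P) 25, with 6 libraries each for B6 WT and Mertk-/-V1 and 3 each for Mertk-/-V2 and Mertk-/-V3, and from BMDMs at day 7 of culture, with 3 libraries for each genotype. In Mertk-/-V1 mice exon 17 was removed in 129P2 embryonic stem cells, with a neomycin cassette in the locus, and after backcrossing they still hold a 129P2 segment around Mertk on chromosome 2. Mertk-/-V2 mice lost exon 18 from a floxed allele of C57BL/6NJ origin through a tamoxifen-induced Cre expressed from the Rosa26 locus, which was later bred out. Mertk-/-V3 mice lack exons 3 and 4 after CRISPR/Cas9 editing of C57BL/6NJ eggs. B6 WT mice carry none of these alleles, and the RPE was taken directly from untreated mice. RPE was shaken off the opened posterior eyecup into an RNA-preserving solution and pelleted, so that the pellet can also hold photoreceptor, choroidal or blood cells. BMDMs were grown in medium conditioned by L929 cells.

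Values are normalized counts, that is, read counts divided by 1 size factor for each library. Libraries held 14137666 to 34124049 reads on genes in RPE and 16629659 to 25653814 in BMDMs. Mertk, counted over the whole gene, was lower than in B6 WT in Mertk-/-V1 (log2 fold change -1.46 in RPE and -1.61 in BMDMs) and in Mertk-/-V3 (-2.01 and -1.94). In Mertk-/-V2 it was not lower (0.39 and 0.43), and in BMDMs it was higher (limma, adjusted p = 0.00129). Since the Mertk count includes reads outside exon 18, it does not check that genotype. In the RPE libraries all 7 RPE markers (Rpe65, Rlbp1, Best1, Lrat, Rdh5, Ttr and Rgr) were present, and in BMDMs the 6 macrophage markers summed to 311326 to 355707 while Rpe65, Lrat and Ttr had 0 reads. In 3 RPE libraries the summed RPE markers were the lowest, at 183008 in Mertk-/-V1 replicate 6, 236425 in Mertk-/-V1 replicate 5 and 268296 in Mertk-/-V3 replicate 1, against 412613 to 845632 in the other 15. The summed rod markers of these 3 were the highest, at 408812 to 867939 against 34743 to 341294. Results that rest on these libraries are therefore given with and without them. Fewer RPE cells in a pellet and less RNA of a gene in each cell cannot be told apart in such bulk samples.

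Levels of different genes were compared per length, as RPKM (reads for each kb of exon, scaled to the reads of the library). In B6 WT RPE, Acadl, the long-chain acyl-CoA dehydrogenase, had the highest level of the 9 at 70.8 ± 5.35 (SD, n = 6). Cpt1a, which makes the acyl-carnitines that enter mitochondria, followed at 42.8 ± 5.68. Hadha, the α subunit of the trifunctional protein, was at 26.3 ± 0.427, and Acadm, the medium-chain dehydrogenase, at 26.01 ± 3.93. Plin2, which coats lipid droplets, was at 20.9 ± 2.26 and Cpt2, which releases acyl-CoA inside the mitochondrion, at 18.8 ± 2.24. These last 4 genes formed a run in which each overlapped its neighbour over the 6 libraries. Angptl4, an inhibitor of lipoprotein lipase, stood lower at 7.77 ± 2.62, Ppara at 3.17 ± 0.239 and Pdk4, which blocks entry of pyruvate into the citric acid cycle, at 1.88 ± 0.129, with no overlap between them.

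The order was different in B6 WT BMDMs, where Plin2 led with 167 ± 7.20 RPKM (SD, n = 3). Acadl was at 58.8 ± 1.79, Hadha at 21.6 ± 0.416 and Acadm at 18.1 ± 0.859. Cpt1a (11.4 ± 0.955) and Cpt2 (10.9 ± 0.470) overlapped. Angptl4 was at 0.465 ± 0.0487, and Ppara reached at most 3.37 normalized counts in any of the 12 BMDM libraries. Pdk4 had 0 reads in all 12, which allows up to 3 reads in a library and covers counting error only. Ppara and Pdk4 were therefore tested in RPE alone, and 7 of the 9 genes could be tested in BMDMs. The tables of the tissues were normalized separately, so the levels are set side by side without a test.

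Among the other genes of the pathway the tissues also differed in level. Slc16a1, the ketone and lactate transporter MCT1, was at 223 ± 24.1 RPKM in B6 WT RPE and 6.75 ± 0.833 in B6 WT BMDMs. The opposite order held for Cd36, a fatty acid and scavenger receptor (1.01 ± 0.300 in RPE, 194 ± 25.1 in BMDMs) and for Lpl, lipoprotein lipase (6.40 ± 1.55 and 115 ± 9.99). Of the receptors, Ppard was at 5.89 ± 0.374 in RPE and 5.08 ± 0.398 in BMDMs, and Pparg was at 0.688 ± 0.133 in RPE and 6.15 ± 0.367 in BMDMs. The coactivator Ppargc1a was at 10.02 ± 1.70 in RPE and at 0.00411 ± 0.00711 in BMDMs.

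In RPE, Angptl4 was lower in Mertk-/-V1 than in B6 WT and Mertk-/-V2. It lies at chr17:33773750-33781830 on the minus strand (GRCm38; protein coding). The 6 B6 WT libraries ranged from 429.8 to 1237 normalized counts (median 682), and the 6 Mertk-/-V1 libraries from 172 to 377 (median 272). Mertk-/-V2 had 1205, 783 and 840.4, and Mertk-/-V3 321, 537 and 662. Every Mertk-/-V1 library was below every B6 WT and every Mertk-/-V2 library, while the lowest Mertk-/-V3 library lay inside the Mertk-/-V1 range. The log2 fold change of Mertk-/-V1 over B6 WT was -1.34 ± 0.25 (SE), a level of 0.396 times that of B6 WT, and -1.30 ± 0.25 over the averaged Mertk-/-V2 and Mertk-/-V3 groups. It was -1.46 within replicates 1 to 3 and -1.21 within replicates 4 to 6, and between -1.47 and -1.17 when any 1 library was left out. Without the 3 libraries of low RPE markers it was -1.14.

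**Figure D1:**
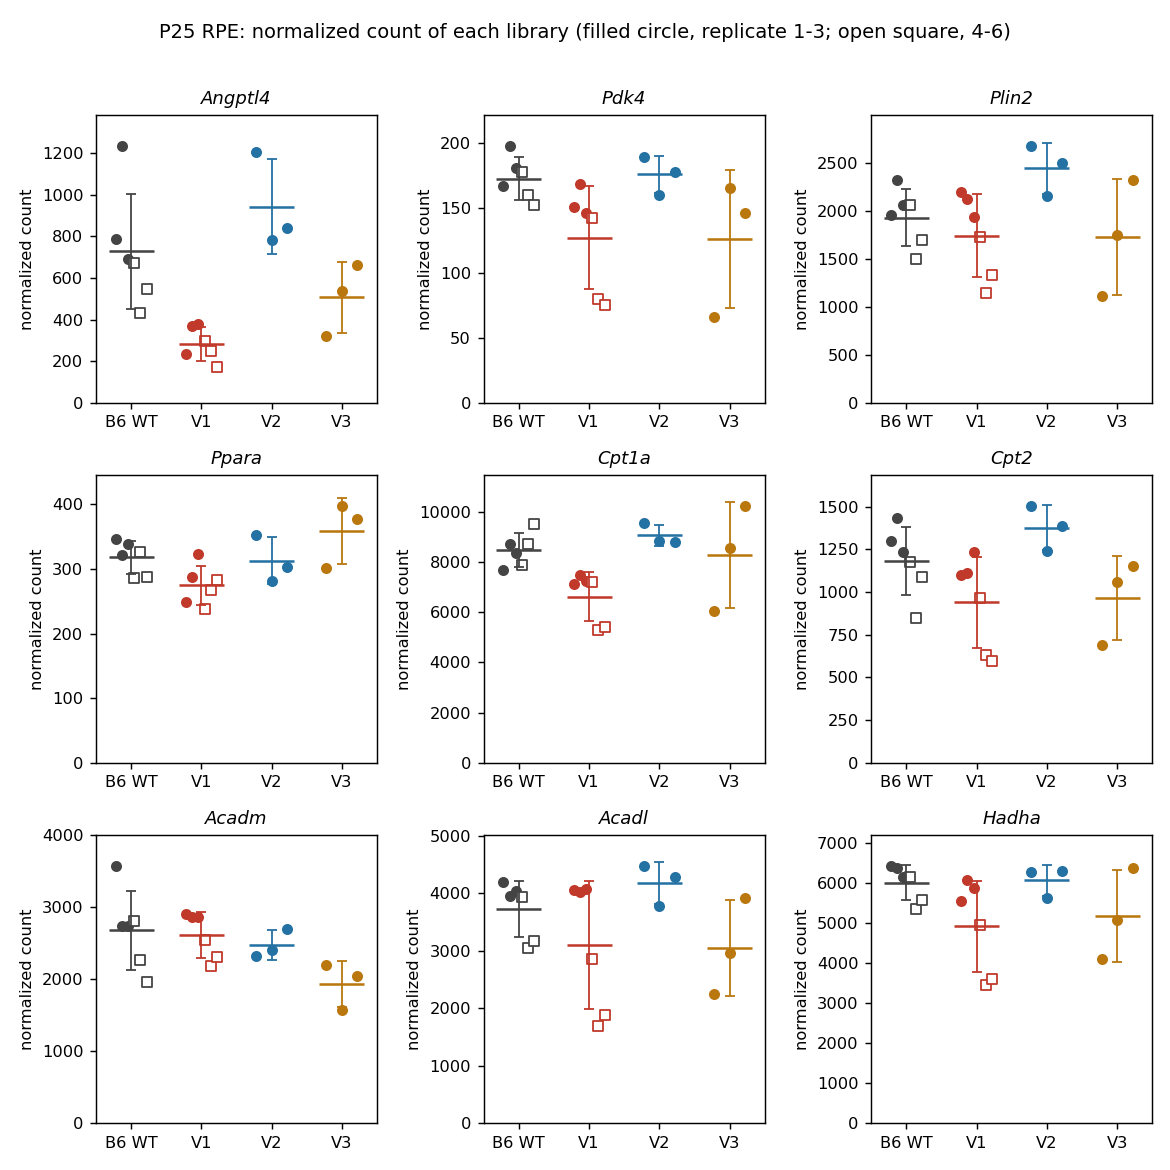
Normalized counts of the 9 genes in each of the 18 RPE libraries (vertical axes start at 0) by genotype; points are libraries and bars are the group mean and SD. The 6 Mertk-/-V1 libraries of Angptl4 sit between 172 and 377, all below the 6 B6 WT libraries.

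The other 8 genes differed less in the same comparison. Pdk4 spanned 152 to 198 in the B6 WT libraries (median 172) and 75.3 to 169 in those of Mertk-/-V1 (median 144), with a log2 fold change of -0.50 ± 0.23. Cpt1a ranged from 7679 to 9527 (median 8547) and from 5315 to 7489.9 (median 7168), -0.37 ± 0.12. Angptl4 and Cpt1a were the 2 of 9 genes in which every Mertk-/-V1 library was below every B6 WT library, a pattern held by 0.52% of all genes tested. Because the group was chosen on this comparison, nothing is read from that count.

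The fatty acid enzymes overlapped between the genotypes. Cpt2 fell in the range 851 to 1433 in B6 WT (median 1207) and 595 to 1234 in Mertk-/-V1 (median 1033), Acadl in 3046 to 4201 (median 3945) and 1691 to 4067 (median 3438), and Hadha in 5356 to 6423 (median 6144) and 3453 to 6075 (median 5242). Their log2 fold changes were -0.37 ± 0.19, -0.35 ± 0.22 and -0.32 ± 0.14. Ppara (-0.21 ± 0.10), Plin2 (-0.17 ± 0.19) and Acadm (-0.02 ± 0.13) were nearer to 0. All 9 values were below 0 with a median of -0.35, against 0.02 over all genes. The group was chosen on this comparison and the share of all genes below 0 is not given, so nothing is read from this direction.

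Most of these smaller differences were nearer to 0 without the libraries of low RPE markers. Without the 3 libraries the log2 fold change was -0.22 for Cpt1a, -0.18 for Pdk4, -0.09 for Cpt2, -0.10 for Hadha and 0.01 for Acadl, and Acadm and Plin2 were above 0 (0.08 and 0.06). Within replicates 1 to 3 the 8 genes other than Angptl4 lay between -0.23 (Ppara and Pdk4) and -0.01 (Acadl). Within replicates 4 to 6 they lay between -0.77 (Pdk4) and 0.01 (Acadm), with Acadl at -0.69 and Cpt2 and Hadha at -0.53. That set holds the Mertk-/-V1 libraries of low RPE markers. Cpt1a was at -0.18 within replicates 1 to 3 and -0.56 within replicates 4 to 6.

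Over the 18 RPE libraries the levels of most of the 9 genes followed the RPE markers. Pearson's r of the log2 level with the log2 sum of the 7 markers was 0.95 for Cpt2 and Hadha, 0.92 for Pdk4, 0.91 for Acadl, 0.87 for Cpt1a, 0.86 for Plin2 and 0.85 for Angptl4. It was lower for Ppara (0.50) and Acadm (0.23). Between the 9 genes the median r over 36 pairs was 0.73, with a range of -0.28 to 0.97. The points share their library and its mixture of cells, and genotypes are pooled, so these are descriptions over 18 libraries. Divided by the marker sum, Angptl4 per 1000 marker counts ranged over 0.918 to 1.46 (B6 WT), 0.502 to 1.04 (Mertk-/-V1), 1.32 to 1.52 (Mertk-/-V2) and 0.902 to 1.197 (Mertk-/-V3). The 4 Mertk-/-V1 libraries with more RPE markers held 0.502 to 0.720, below all B6 WT libraries. The same ratio of Cpt1a was not lower in Mertk-/-V1 (11.9 to 29.5) than in B6 WT (10.3 to 18.6). For Cpt2 (2.02 to 3.25 against 1.69 to 1.98) and Acadl (6.67 to 10.3 against 4.67 to 6.50) every Mertk-/-V1 library was above every B6 WT library. The median ratio was higher in Mertk-/-V1 for every member except Angptl4. The marker sum itself had a lower median in Mertk-/-V1, so a ratio that is not lower does not show an unchanged level. For the same reason a higher ratio does not show a higher level. The share of all genes separated by this ratio was not counted, so nothing is read from these separations. The sum of 5 skeletal muscle markers ranged from 1266 to 15177 in B6 WT (median 10338) and from 1198 to 9282 in Mertk-/-V1 (median 3313). The part of the cell mixture in the lower counts was not tested further.

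**Figure D2:**
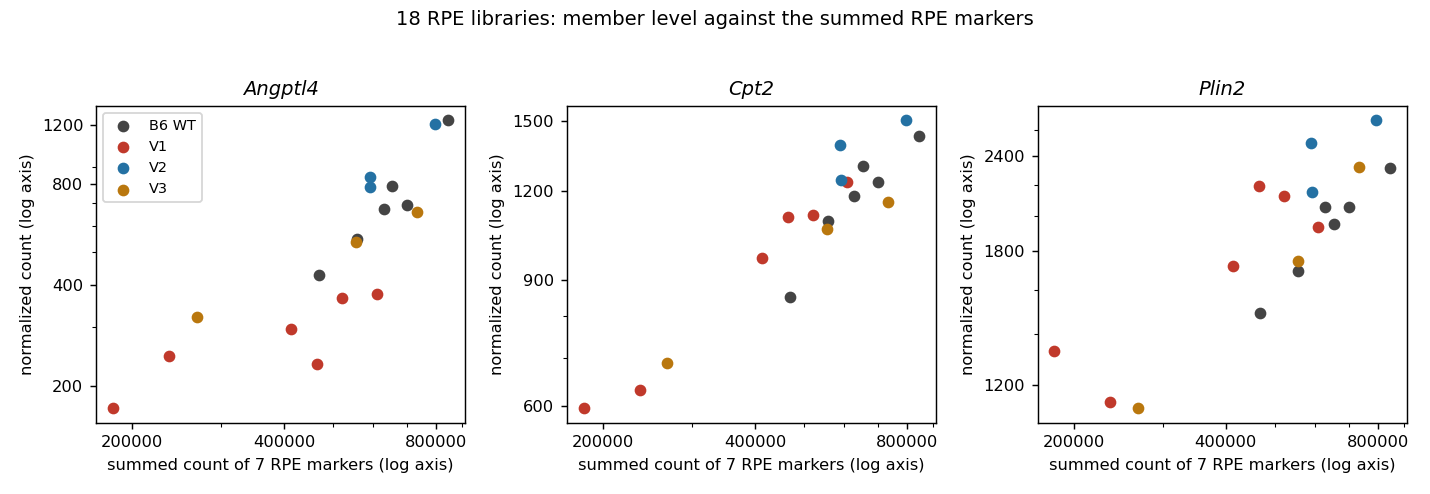
Normalized counts of Angptl4, Cpt2 and Plin2 (log axes) against the summed normalized count of 7 RPE markers in each of the 18 RPE libraries, coloured by genotype. The 3 libraries of low marker sum, 2 of Mertk-/-V1 and 1 of Mertk-/-V3, lie at the left, and the 4 other Mertk-/-V1 libraries lie below the rest for Angptl4 but not for Cpt2.

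The genes whose level was most like that of Angptl4 over the 18 RPE libraries were Ndrg2 (r = 0.96), Slc30a5 (0.92), Ddc (0.92), Sfrp5 (0.91) and Gm45650 (0.91). For Pdk4 they included 2210408F21Rik, Smim4, Galm and Olfml1, at 0.94 to 0.95. For Plin2 they were Mrps18a, S100a13, Cd63, Gmpr and Atraid, at 0.96 to 0.97.

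Loss of Mertk on a B6 background, together with the part of C57BL/6NJ origin, was examined in Mertk-/-V2 and Mertk-/-V3 RPE, where the 9 genes could be tested. None of the 9 passed an adjusted p under 0.05 against B6 WT in Mertk-/-V2 (limma; background 0.069% of all genes), and by the unadjusted p 0 of 9 were under 0.05. In Mertk-/-V3 again 0 of 9 passed (background 0.069%), with 1 of 9 under 0.05 unadjusted. Here and in the other genotype comparisons, no share of all genes is given for the unadjusted p, so nothing is read from the unadjusted counts. edgeR and DESeq2 also called 0 in both comparisons. In Mertk-/-V3 the call of some members changed with the model, together with that of many other genes. A fit with the replicate number as a block called 6 of the 9 (background 29.8%) and one with array quality weights 7 of the 9 (background 66.9%). The weights did not converge and gave Mertk-/-V3 replicate 2 a weight of 41.6, against 0.159 to 3.04 in the other 17 libraries. Angptl4 differed from B6 WT by 0.43 ± 0.31 on the log2 scale in Mertk-/-V2 (adjusted p = 0.957) and by -0.51 ± 0.31 in Mertk-/-V3 (adjusted p = 0.498). Both groups overlapped B6 WT. These comparisons and that of Mertk-/-V1 share the B6 WT libraries.

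Acadm was the gene with the unadjusted p under 0.05. It read 2189, 1567 and 2041 in Mertk-/-V3 and 1954 to 3573 in B6 WT (median 2736), with overlap between the groups. Its log2 fold change was -0.46 ± 0.16 (adjusted p = 0.449), and against only B6 WT replicates 1 to 3 it was -0.64 (adjusted p = 0.0133), the 1 call among the 9 in that fit, which called 21.9% of all genes. Against only B6 WT replicates 4 to 6 it was -0.27 and did not pass. The median of the 9 genes was -0.30 in Mertk-/-V3 and 0.10 in Mertk-/-V2, against -0.01 and 0.02 over all genes. Without Mertk-/-V3 replicate 1, a library of low RPE markers, the 9 genes in Mertk-/-V3 lay between -0.56 (Acadm) and 0.29 (Ppara). Angptl4 was then at -0.21, Plin2 at 0.08, Hadha at -0.08 and Cpt1a at 0.14.

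Mertk-/-V2 and Mertk-/-V3 were also compared with each other, since both alleles were made in B6-derived mice. Angptl4 was higher in each Mertk-/-V2 library (783 to 1205) than in each Mertk-/-V3 library (321 to 662), by 0.93 ± 0.36 on the log2 scale, and the difference did not pass (adjusted p = 0.285). Cpt2 read 1506, 1239.9 and 1388 in Mertk-/-V2 and 688, 1059.9 and 1155 in Mertk-/-V3 (0.54 ± 0.27, adjusted p = 0.418). Acadm was likewise without overlap (0.37 ± 0.18, adjusted p = 0.418), while Plin2 overlapped (0.56 ± 0.26, adjusted p = 0.393). The share of all genes without overlap between these lines was not counted, so nothing is read from these separations. By limma 0 of 9 passed (background 0.0743%), and 2 of 9 were under 0.05 unadjusted. edgeR and DESeq2 called 0, and the weights that did not converge called 7 (background 52.1%). The summed RPE markers were 590459 to 794428 in Mertk-/-V2 and 268296 to 733191 in Mertk-/-V3. The skeletal muscle markers summed to 5855 to 19902 in Mertk-/-V2 and 2136 to 3526 in Mertk-/-V3, without overlap. The red blood cell markers summed to 30412 to 63450 and 4310 to 8032, also without overlap. The part of these cell mixtures in the differences was not tested. Without Mertk-/-V3 replicate 1 the difference of Angptl4 was 0.63.

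Beyond the 9 genes, 78 others in 9 lists of the pathway were examined (receptors and coactivators, uptake and activation, carnitine shuttle, mitochondrial and peroxisomal β-oxidation, ketone bodies, other PPAR targets, lipid droplets and pyruvate dehydrogenase control), of which 71 could be tested across the RPE genotypes. None of the 71 passed in Mertk-/-V2 against B6 WT, in Mertk-/-V3 against B6 WT or between these lines, whether by limma, edgeR or DESeq2. Unadjusted, 4, 8 and 8 of the 71 were under 0.05, without a share of all genes beside them. Of the 12 mitochondrial β-oxidation genes, all 12 were below 0 in Mertk-/-V3 (median -0.33) and 11 were above 0 in Mertk-/-V2 (median 0.13), none past the threshold. The RPE markers had medians of -0.40 and 0.11 in these comparisons. Mertk-/-V3 replicate 1, a library of low RPE markers, is included, and values of the 12 genes without it are not given. The share of all genes on each side of 0 is not given either, so nothing is read from these directions.

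The B6 WT and Mertk-/-V1 RPE libraries carry replicate numbers 1 to 6, while the other lines have 1 to 3 only. The labels do not say what separates 1 to 3 from 4 to 6. Between these sets, with genotype as a term, 6 of the 9 genes were lower in replicates 4 to 6, beside a background of 21.8% of all genes called lower. Acadl ranged from 3949.5 to 4201 in B6 WT and 4018 to 4067 in Mertk-/-V1 replicates 1 to 3, and from 3046 to 3941 and 1691 to 2859 in replicates 4 to 6. No library of the later numbers reached any of the earlier, and the log2 difference was -0.61 ± 0.15 (adjusted p = 0.0104).

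Cpt2 (-0.52 ± 0.13, adjusted p = 0.0109), Plin2 (-0.44 ± 0.12, adjusted p = 0.0133), Hadha (-0.36 ± 0.10, adjusted p = 0.0197) and Acadm (-0.33 ± 0.10, adjusted p = 0.0182) were lower as well. Angptl4 was also lower (-0.57 ± 0.20, adjusted p = 0.0358). Its call was lost when B6 WT replicate 1, 2, 5 or 6 or Mertk-/-V1 replicate 2, 3 or 6 was left out, with adjusted p from 0.0163 to 0.0827. Pdk4 (-0.43, adjusted p = 0.0631), Ppara (-0.14, adjusted p = 0.204) and Cpt1a (-0.11, adjusted p = 0.387) did not pass. The calls of Acadl, Cpt2, Plin2, Hadha and Acadm held in all 12 fits that left out 1 library.

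The RPE markers moved the same way, with 6 of 7 lower (median log2 difference -0.70), and the rod markers the opposite way, with 9 of 9 higher (median 2.07). The summed RPE markers were 464924 to 845632 in replicates 1 to 3 and 183008 to 629475 in replicates 4 to 6, and the summed rod markers 34743 to 123111 and 132887 to 867939. Red blood cell markers were lower in replicates 4 to 6 in 5 of 5 genes, and skeletal muscle markers in 4 of 5. The part of this mixture in the fall of the fatty acid genes was not tested. Without the 3 libraries of low RPE markers 2 of the 9 genes, Acadl (-0.35, adjusted p = 0.0261) and Cpt2 (-0.32, adjusted p = 0.0439), still passed, in a fit that called 20.4% of all genes in either direction. Within B6 WT or within Mertk-/-V1 alone, with 3 libraries against 3, 0 of 9 passed by limma, and 0 of all genes did, with 5945 and 6919 genes under 0.05 unadjusted.

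The wider pathway showed the same direction between the replicate sets, with 29 of 72 genes lower and 4 higher (median -0.25, against -0.01 over all genes). Over all genes 21.8% were lower and 19.0% higher. At that share of lower genes the 72 would hold 15.7, the lists of 12, 11 and 9 genes 2.62, 2.40 and 1.96, and those of 6 genes 1.31. Mitochondrial β-oxidation had 9 of 12 genes lower. They included Etfa, a subunit of the electron transfer flavoprotein (-0.58), Echs1, the short-chain enoyl-CoA hydratase (-0.50), Hadh, the hydroxyacyl-CoA dehydrogenase (-0.60), and Eci1, an enoyl-CoA isomerase (-0.66). Ketone body metabolism had 2 of 6 lower, among them Slc16a1 (-0.60), a count near the background.

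Lipid droplet genes were lower in 4 of 11, among them G0s2, an inhibitor of adipose triglyceride lipase (-0.93), Abhd5, its activator (-0.60), Plin3 (-0.63) and the triglyceride-forming enzyme Dgat2 (-0.77). Uptake and activation had 4 of 11 lower, namely Acsl5 (-0.76), Acsl1 (-0.51), Slc27a4 (-0.34) and Fabp5 (-1.46), and other PPAR targets 3 of 6, namely Acot1 (-0.49), Mlycd (-0.28) and Vnn1 (-1.05). Peroxisomal β-oxidation was split, with 5 of 9 lower, such as Abcd3 (-0.51) and Ehhadh (-0.39), and 2 higher, of which Acaa1b was at 0.87. Since Acaa1b and Acaa1a are close paralogs, the value of Acaa1b depends on how reads between them were assigned. The brain isoform Cpt1c (0.63) and the coactivator Ppargc1b (0.78) were higher, and Slc25a20, the carnitine carrier (-0.43), and Rxra, the partner receptor of PPARs (-0.47), were lower. Pyruvate dehydrogenase control had 0 of 5 called.

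**Figure D3:**
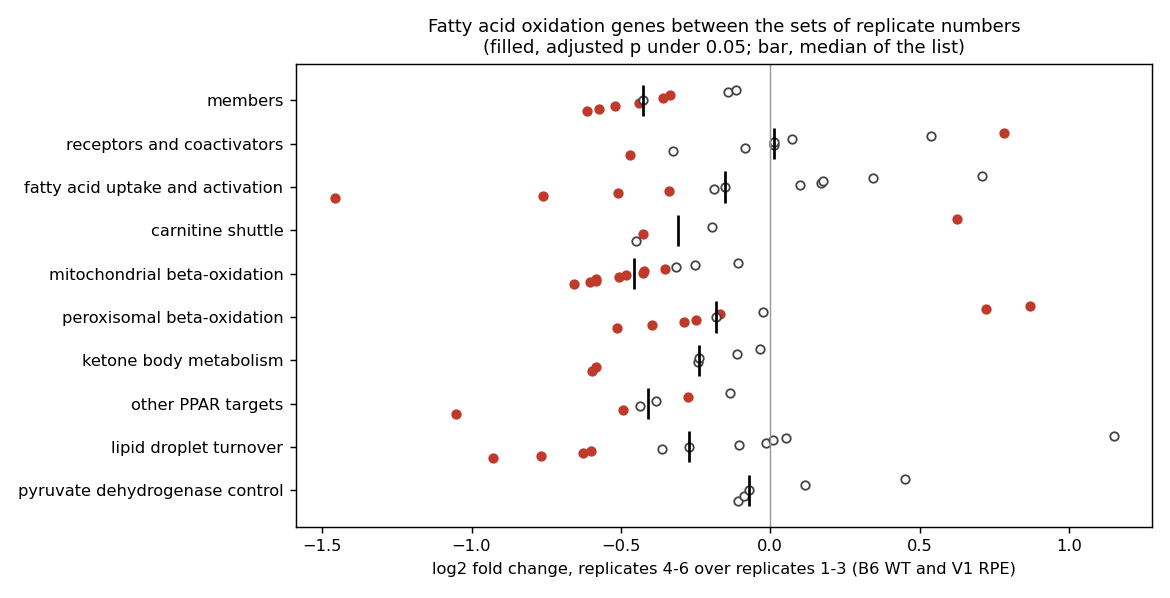
Log2 difference of RPE replicates 4 to 6 over replicates 1 to 3 (B6 WT and Mertk-/-V1) for the 9 genes and for the other pathway genes by list; each point is a gene, filled where the adjusted p is under 0.05, and the bar is the median of the list. Mitochondrial β-oxidation genes lie left of 0 in all 12 cases, and pyruvate dehydrogenase control genes lie around 0.

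Among the genotype comparisons that were tested, the calls of members were in BMDMs, in Cpt1a and Plin2. Each was 1 of 7 genes in its comparison, beside 3.16% to 7.07% of all genes, so nothing is read from the number of calls. Because Cpt1a and Plin2 are the members called, the 250 bases before their RefSeq start (GRCm38.p6) are shown 5′ to 3′ on the strand of the gene. Plin2 lies at chr4:86648386-86670060 on the minus strand and the printed stretch is chr4:86670060-86670309. Cpt1a lies at chr19:3322334-3385733 on the plus strand and the stretch is chr19:3323051-3323300. Capitals mark letters that match a PPAR element or one of its hexamers, read on the opposite strand in both genes.
Plin2: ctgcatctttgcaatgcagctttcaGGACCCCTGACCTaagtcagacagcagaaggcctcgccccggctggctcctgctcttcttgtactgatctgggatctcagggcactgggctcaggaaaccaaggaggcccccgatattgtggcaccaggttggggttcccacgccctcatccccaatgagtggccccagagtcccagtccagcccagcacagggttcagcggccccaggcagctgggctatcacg
Cpt1a: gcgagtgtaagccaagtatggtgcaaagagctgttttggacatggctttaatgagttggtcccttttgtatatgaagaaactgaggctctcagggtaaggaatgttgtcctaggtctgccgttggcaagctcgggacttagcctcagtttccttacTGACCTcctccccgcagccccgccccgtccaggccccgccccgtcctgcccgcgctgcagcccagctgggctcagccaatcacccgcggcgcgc

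PPARs bind, with a retinoid X receptor, a hexamer repeated in the same direction with 1 base between the copies. The repeat of AGGTCA with any 1 base between the copies was searched on both strands with at most 2 mismatches, and the single hexamer AGGTCA, which also makes up the repeat, on both strands without a mismatch. Both searches covered 300 bases, 250 before and 50 after the start, of 8 of the 9 genes and of 27025 promoters in all. Plin2 alone of the 8 held the repeat, as AGGTCAGGGGTCC with 2 mismatches, and 3 of 8 held the hexamer (Plin2 inside the repeat, Cpt1a and Acadm). Over all promoters 3.81% held the repeat and 16.0% the hexamer. The matches are descriptions of letters and do not show a binding site.

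Cpt1a was higher in Mertk-/-V1 and Mertk-/-V2 BMDMs than in B6 WT. The B6 WT libraries read 1606, 1808 and 1905 normalized counts, Mertk-/-V1 2181, 2141 and 2228, Mertk-/-V2 2232, 2032 and 2657, and Mertk-/-V3 2011, 2147 and 2063. Every knockout library was above every B6 WT library, a pattern whose share over all genes was not counted. The log2 fold change was 0.30 ± 0.08 in Mertk-/-V1 (adjusted p = 0.041), 0.37 ± 0.08 in Mertk-/-V2 (adjusted p = 0.0233) and 0.23 ± 0.08 in Mertk-/-V3, which did not pass (adjusted p = 0.191). The difference of Mertk-/-V1 from the averaged other lines was 0.00 ± 0.07 and did not pass (adjusted p = 0.995).

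These calls depended on single libraries and on the model. In Mertk-/-V1 the call was lost without B6 WT replicate 1 or 2, Mertk-/-V1 replicate 1, 2 or 3, or Mertk-/-V3 replicate 1, 2 or 3, with adjusted p from 0.00469 to 0.186. It was also lost without the filter on low values (adjusted p = 0.0606). In Mertk-/-V2 it was lost without B6 WT replicate 1 or 2 (0.0098 to 0.112), and when only the groups compared were fitted (adjusted p = 0.164). In Mertk-/-V3 it passed without Mertk-/-V2 replicate 3 (0.0329 to 0.497).

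Plin2 was lower in Mertk-/-V2 than in Mertk-/-V3 BMDMs. Mertk-/-V2 read 12104, 11434 and 10933 and Mertk-/-V3 13965, 13844 and 14979, with no overlap. The log2 difference was -0.31 ± 0.06 (adjusted p = 0.0113), lost without Mertk-/-V3 replicate 3 (adjusted p = 0.0625; 0.00888 to 0.0625 over the 12 fits) and when only these groups were fitted (adjusted p = 0.0546). B6 WT read 11654, 11565 and 12762 and Mertk-/-V1 12360.4, 12277 and 13611, which overlapped. Against B6 WT, Plin2 in Mertk-/-V3 was at 0.25 ± 0.06 and above every B6 WT library, yet did not pass (adjusted p = 0.0552). It passed when B6 WT replicate 3 or Mertk-/-V2 replicate 1 or 3 was left out (adjusted p from 0.0125 to 0.241).

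**Figure D4:**
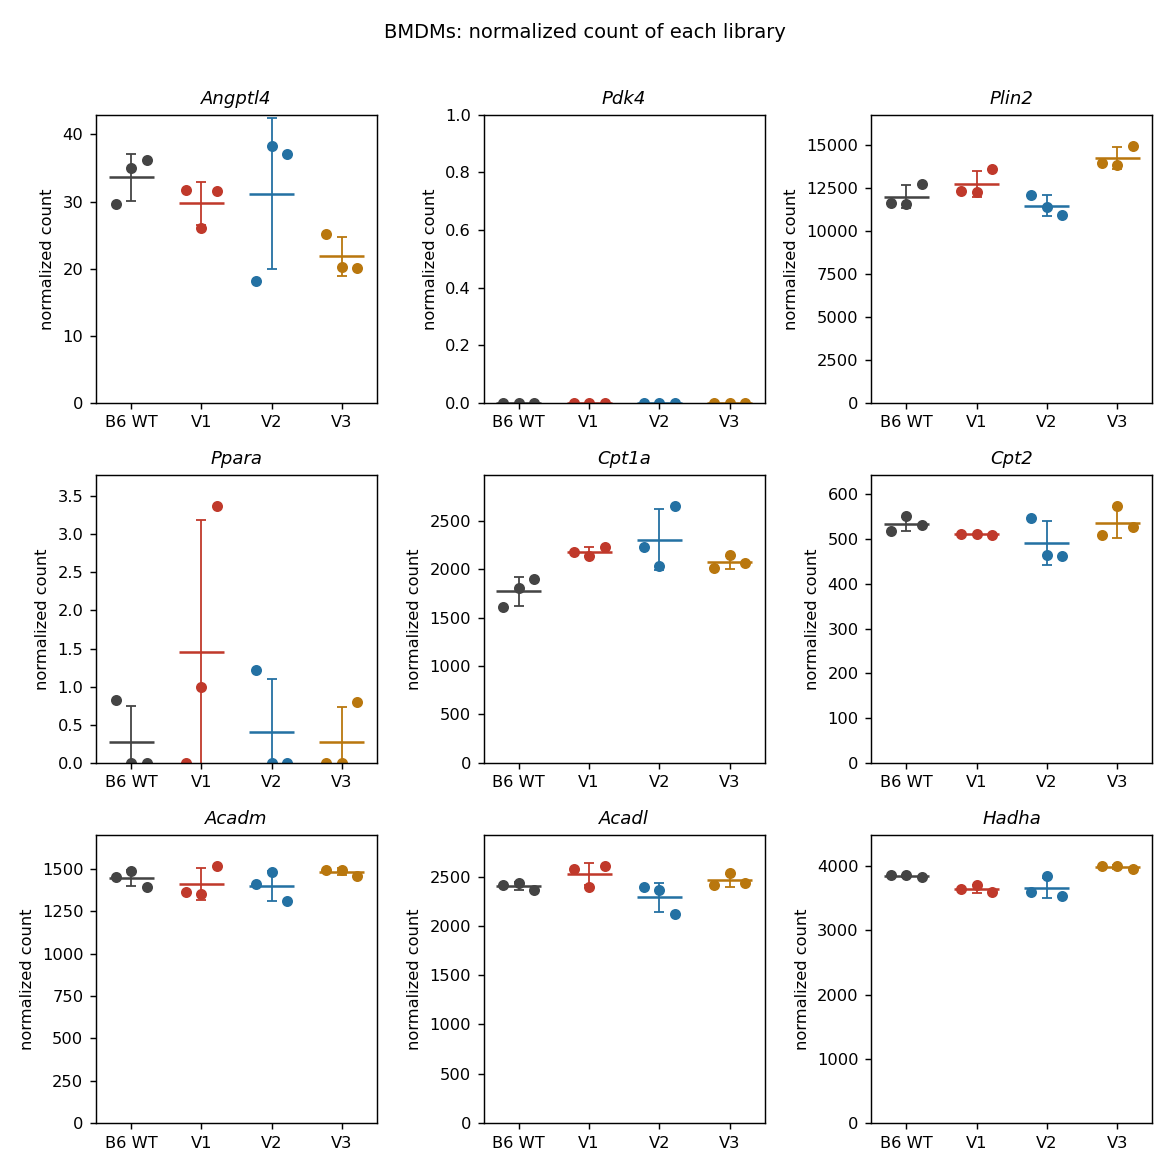
Normalized counts of the 9 genes in each of the 12 BMDM libraries (vertical axes start at 0) by genotype; points are libraries and bars are the group mean and SD. The 9 knockout libraries of Cpt1a lie above the 3 B6 WT libraries, and Pdk4 has 0 reads in every library.

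The remaining members differed little in BMDMs. Hadha read 3859, 3860.2 and 3830.3 in B6 WT, 3644, 3710.3 and 3593 in Mertk-/-V1 and 4007, 3998 and 3959 in Mertk-/-V3. Mertk-/-V1 was below and Mertk-/-V3 above every B6 WT library, by -0.08 ± 0.04 and 0.05 ± 0.04 (adjusted p = 0.245 and 0.559). The share of all genes separated in this way was not counted, so nothing is read from the separation. Angptl4 was low in BMDMs, at 29.6, 35.0 and 36.1 in B6 WT and 25.1, 20.3 and 20.1 in Mertk-/-V3, a difference of -0.60 ± 0.27 that did not pass (adjusted p = 0.304). In Mertk-/-V1 it read 31.7, 25.99 and 31.5 and in Mertk-/-V2 18.2, 38.3 and 37.0, both overlapping B6 WT (-0.17 ± 0.27 in each, adjusted p = 0.759 and 0.768). Acadl, Acadm and Cpt2 lay between -0.12 and 0.07 in the 3 knockouts against B6 WT, none past the threshold. Between the 7 testable genes the median r over 21 pairs was -0.02 in BMDMs, over 12 libraries.

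By number, 1 of 7 genes passed in Mertk-/-V1 (Cpt1a, background 7.07%), 1 of 7 in Mertk-/-V2 (Cpt1a, background 4.61%) and 0 of 7 in Mertk-/-V3 (background 1.17%). In Mertk-/-V3, 3 of 7 were under 0.05 unadjusted, a count without a share of all genes beside it. There edgeR and DESeq2 each called 1 of 7 (background 1.28% and 2.99%). Of Mertk-/-V1 against the averaged other lines, 0 of 7 passed (background 0.991%; 0 unadjusted, 0 by edgeR and 0 by DESeq2), and 1 of 7 passed between Mertk-/-V2 and Mertk-/-V3 (Plin2; background 3.16%). Each count of 1 is a single gene, so nothing is read from these counts. The medians of the 7 genes over B6 WT were -0.04, -0.07 and 0.04, beside -0.0047, -0.00096 and 0.0048 over all genes.

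**Figure D5:**
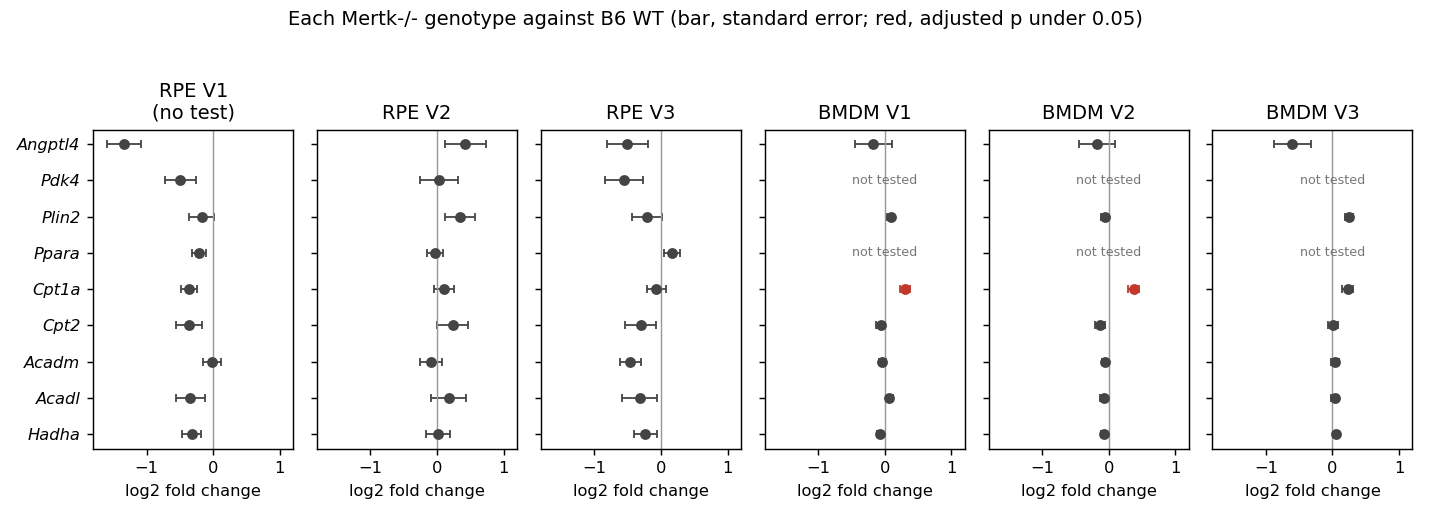
Log2 fold change over B6 WT (points) with its standard error (bars) of the 9 genes for each knockout in RPE and BMDMs; red marks an adjusted p under 0.05, and Mertk-/-V1 RPE is shown without a test. Angptl4 at -1.34 in Mertk-/-V1 RPE lies furthest from 0, and Cpt1a in Mertk-/-V1 and Mertk-/-V2 BMDMs is marked red.

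Of the other pathway genes, 64 could be tested in BMDMs. In Mertk-/-V1, 3 of 64 rose against B6 WT, a share below the 7.07% of all genes called, and nothing is read from the count. Slc27a1, a fatty acid transport protein, ranged from 6754 to 6899 in B6 WT and from 8007 to 8355 in Mertk-/-V1 (0.25 ± 0.04, adjusted p = 0.00411), a call that held in all 12 fits without 1 library. Fabp4, a fatty acid binding protein and PPAR target, ranged from 183 to 226 and from 312 to 367 (0.75 ± 0.17, adjusted p = 0.0183). Acot2, a mitochondrial acyl-CoA thioesterase, ranged from 196 to 232 and from 258 to 315 (0.40 ± 0.11, adjusted p = 0.0398). Neither overlapped B6 WT, and without B6 WT replicate 1 or 2 or Mertk-/-V1 replicate 2 or 3 neither passed. The call of Acot2 was lost without Mertk-/-V1 replicate 1 and Mertk-/-V3 replicate 2 or 3 too. Adjusted p ran to 0.0928 for Fabp4 and 0.166 for Acot2. Acot2 also did not pass without the filter (adjusted p = 0.0564) or with the replicate block (adjusted p = 0.0671).

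Slc27a1 was also the 1 of 64 that rose in Mertk-/-V2 (background 4.61%), at 7557 to 8006 (0.18 ± 0.04, adjusted p = 0.0294). That call was lost without B6 WT replicate 1 or 2 or Mertk-/-V2 replicate 1 (adjusted p up to 0.118), without the filter (adjusted p = 0.06) and when only the groups compared were fitted (adjusted p = 0.152). In Mertk-/-V3, 0 of 64 passed by limma, edgeR or DESeq2, with 11 under 0.05 unadjusted. Against the mean of the other lines 0 of 64 passed in Mertk-/-V1, with 11 under 0.05 unadjusted. There edgeR and DESeq2 each called 1 (background 1.03% and 1.48%). Between Mertk-/-V2 and Mertk-/-V3, 2 of 64 were lower in Mertk-/-V2 (background 3.16%). Lpl ranged from 15947 to 30763 in Mertk-/-V2 and from 34829 to 40310.0 in Mertk-/-V3 (-0.74 ± 0.18, adjusted p = 0.0432), and Acaa1a, the peroxisomal thiolase, from 1366 to 1584 and from 1664 to 1768 (-0.21 ± 0.05, adjusted p = 0.0476). Both rested on single libraries, since Lpl passed in 3 and Acaa1a in 1 of the 12 fits without 1 library, with adjusted p up to 0.142 and 0.158. Of the 12 such fits, those without Mertk-/-V2 replicate 2 or 3 or any Mertk-/-V3 library lost both calls. Fitting only these groups, or the replicate block, also ended both (adjusted p from 0.0846 to 0.185), as did edgeR that of Lpl (adjusted p = 0.0524), and the array weights and the fit without the filter that of Acaa1a (adjusted p = 0.0574 and 0.0877).

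Angptl4, Pdk4 and Cpt1a are known to respond to glucocorticoids or to low oxygen besides PPARs, so 2 short lists of such genes were read beside them. In BMDMs the glucocorticoid-responsive Per1 (0.41) and Klf9 (0.46) rose and Tsc22d3 (-0.36) fell in Mertk-/-V1, 3 of 6 genes (background 7.07%). The same 3 were called in Mertk-/-V2 at 0.29, 0.43 and -0.69 (background 4.61%). In Mertk-/-V3 they were at 0.21, 0.18 and -0.17, and 0 of 6 genes of either list passed by limma (background 1.17%), with Per1, Fkbp5 and Vegfa under 0.05 unadjusted. Of the hypoxia-responsive genes, 2 of 6 were called in Mertk-/-V1, Ndrg1 higher (0.47) and Egln3 lower (-0.65), and 0 of 6 in Mertk-/-V2. Between Mertk-/-V2 and Mertk-/-V3, Tsc22d3 (-0.52) and Ankrd37 (-0.76), 1 of 6 in each list, were lower in Mertk-/-V2 (background 3.16%). In Mertk-/-V2 and Mertk-/-V3 RPE neither list had a gene past the threshold, and between the RPE replicate sets both lists had genes in each direction (Sgk1 at -0.66 and Klf9 at 0.40, Car9 at -1.08 and Ankrd37 at 1.62). Their part in the values of Angptl4, Pdk4 and Cpt1a was not tested.

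The genes most like Plin2 over the 12 BMDM libraries were Mocos (r = 0.94), Camsap3 (0.93), Fhl3 (0.92), Ncoa5 (0.92) and Igf2bp2 (0.91). For Angptl4 they were Gm36401 (0.88), Dcst1 (0.87), Srm (0.86), Xylb (0.86) and Eif4a3 (0.85).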

How the data were processed

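RNA-seq libraries of 18 RPE and 12 BMDM samples were grouped by the tissue and genotype in their labels. Reads were trimmed (btrim), aligned to GRCm38 (mm10) with STAR and normalized with DESeq2 by the authors; the read counter, annotation release and versions are not given in the sources used here. The deposited signal is a read count per gene divided by 1 size factor of DESeq2 for each library, so values compare within a tissue but not between genes of unequal length. Whole reads were recovered for 100% of values (tolerance 0.01 reads), with 0 columns of other samples. The limit of 3 reads for a gene with 0 reads covers counting error only, while the SD and SE values include variation between libraries.

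Deposited values were put on a log2 scale after adding a pseudocount of 1 and tested with limma 3.58.1 (trend; R 4.3.3) for genes whose mean was 10 or more, with all genotypes of a tissue in 1 model and Benjamini-Hochberg adjustment over all genes tested. A call is an adjusted p under 0.05. Fold changes on this scale understate changes of low genes. The share of all genes without overlap was counted only for Mertk-/-V1 against B6 WT RPE, and other statements of overlap are descriptions. edgeR 4.0.16 and DESeq2 1.42.0 were run on the recovered reads as alternatives. Across the comparisons tested, edgeR called 6 of the 9 genes between RPE replicate sets (40.9% of all genes in either direction) and at most 1 elsewhere (0.0425% to 7.04%). The other alternatives were a pseudocount of 5, no filter, TMM factors, a replicate block, array quality weights, only the groups compared, fits by replicate set and each library left out. Leaving out the 3 RPE libraries of low markers, and dividing by the RPE markers, were chosen after seeing the data.

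Positions and exon lengths came from GENCODE M21, which matched 55480 of 55573 genes, and promoters from RefSeq. Named were all members, the pathway genes with an adjusted p under 0.05 (at most the 4 of lowest p for a list and comparison), at most 2 more for a list by level, and for Angptl4, Pdk4 and Plin2 the 5 genes of highest correlation. Abcd2 and other called genes beyond these are in the counts only. A few genes that the rule would name are not reported here. Members and lists were chosen with earlier results of these data known. The methods name biological replicates and a separate animal behind every data point. In RPE the 6 same-numbered pairs of B6 WT and Mertk-/-V1 libraries deviated together (r from 0.12 to 0.72), as did many unlike-numbered pairs inside replicates 1 to 3 or 4 to 6 (median r 0.41), so a block on the number was read there too. It left Angptl4 at -1.34 ± 0.21 (SE). The other genotype pairs did not meet this check. No 2 libraries were copies. Scripts were tested on simulated data.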

Additional observations from a re-analysis of the deposited data

Results flagged for a closer look

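Cpt1a lay on opposite sides of B6 WT in the tissues of Mertk-/-V1 mice. Every Mertk-/-V1 library was below every B6 WT library in RPE (log2 fold change -0.37) and above every one in BMDMs (0.30). The BMDM side was not particular to Mertk-/-V1, since every Mertk-/-V2 (0.37) and Mertk-/-V3 (0.23) library was also above every B6 WT library. Over the averaged other lines Mertk-/-V1 was at 0.00 in BMDMs. The RPE pattern was held by 0.52% of all genes, and nothing is read from it because the group was chosen on that comparison. The RPE value was -0.22 without the 3 libraries of low RPE markers and -0.18 within replicates 1 to 3. Per 1000 RPE marker counts Cpt1a was not lower in Mertk-/-V1 RPE, with a median of 16.4 against 12.2 in B6 WT and overlapping libraries. The median of that ratio was higher in Mertk-/-V1 for every member except Angptl4, so it does not set Cpt1a apart. Hadha did so between lines in BMDMs, where every Mertk-/-V1 library was below (-0.077) and every Mertk-/-V3 library above (0.051) every B6 WT library. Neither the contrast of Cpt1a between the tissues nor that of Hadha between these lines was tested. Against B6 WT in BMDMs, Cpt1a in Mertk-/-V1 passed by limma (adjusted p = 0.041), and Hadha did not pass in either line. The share of all genes separated in these ways in BMDMs was not counted. In the 18 groups of 6 RPE libraries (9 genes in B6 WT and in Mertk-/-V1) no single library stood far from the others by Dixon's criterion. That criterion looks at 1 library at a time and can miss a pair, such as Mertk-/-V1 replicates 5 and 6, where Pdk4 was at 80.2 and 75.3 against 142 to 169 in the other 4.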

How the results depend on the processing

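No called result changed direction under an alternative. Array quality weights called 3 other pathway genes in Mertk-/-V2 RPE (4.57% of all genes), 7 members and 50 others in Mertk-/-V3 (66.9%), and 7 and 45 between these lines (52.1%), where limma without weights called 0. Since these weights did not converge, nothing is read from them. With a replicate block Mertk-/-V2 RPE had 4 other genes (3.75%), Mertk-/-V3 6 members and 27 others (29.8%), their difference 1 other (2.93%), and Mertk-/-V2 against Mertk-/-V3 BMDMs 0 others (1.89%). Same-numbered libraries of B6 WT correlated at -0.30 to 0.15 with Mertk-/-V2 and -0.33 to 0.30 with Mertk-/-V3 in RPE, and those of any genotypes at -0.30 to 0.36 in BMDMs, so in these comparisons the libraries share only a number. Against B6 WT replicates 1 to 3, Mertk-/-V3 RPE had 1 member and 17 others (21.9%). Between the RPE replicate sets members and others numbered 0 and 0 within B6 WT, 0 and 0 within Mertk-/-V1, and 2 and 20 without the 3 libraries (20.4%). In BMDMs without the filter Mertk-/-V1 had 0 members (2.19% of all genes), Mertk-/-V2 0 others (1.28%), and Mertk-/-V2 against Mertk-/-V3 1 other (1.06%). Fitting only the groups compared gave 5 others in Mertk-/-V1 (9.75% of all genes) and 0 members and 0 others in Mertk-/-V2 (0.515%). It gave 1 and 2 in Mertk-/-V3 (4.17%), and 0 and 0 between Mertk-/-V2 and Mertk-/-V3 (0.644%). Weights gave 13, 3 and 12 others in the 3 knockouts (20.6%, 8.81% and 12.6% of all genes) and 2 members in Mertk-/-V3. They gave 1 other in Mertk-/-V1 against the mean (1.56%) and 1 between Mertk-/-V2 and Mertk-/-V3 (3.07%). TMM factors, edgeR and DESeq2 each gave 1 member in Mertk-/-V3 (1.13%, 1.28% and 2.99% of all genes). edgeR and DESeq2 gave 1 other in Mertk-/-V1 against the mean (1.03% and 1.48%), DESeq2 2 others in Mertk-/-V2 (6.19%), and edgeR 1 between Mertk-/-V2 and Mertk-/-V3 (3.28%). The cause was not tested, beyond fewer libraries in the fits of fewer groups. Leaving out 1 library gave 0 to 0 calls among the RPE genotypes, 5 to 7 members and 25 to 43 others between replicate sets, and in BMDMs 0 to 1 and 1 to 6 (Mertk-/-V1), 0 to 1 and 0 to 3 (Mertk-/-V2), 0 to 2 and 0 to 4 (Mertk-/-V3), 0 to 0 and 0 to 1 (Mertk-/-V1 against the mean) and 0 to 2 and 0 to 2 (Mertk-/-V2 against Mertk-/-V3). The shares of all genes in the fits without 1 library are not given, so nothing is read from these counts. In those fits Angptl4 in Mertk-/-V1 RPE stayed between -1.47 and -1.17, and between -1.45 and -1.17 over the mean of the others. Of the tested values of single genes, 839 kept their side of the threshold, 116 lost it and 28 gained it. Of the untested values of Mertk-/-V1 RPE, 165 moved by less than the spread between libraries and 3 by more. With 3 libraries in most groups, small differences of low genes such as Angptl4 in BMDMs are not resolved.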
